A study of Rattus norvegicus with 6 samples.

Results

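The genes described here are the mesenchymal and widely expressed integrin subunits, 9 genes picked by name: the alpha chains Itga1, Itga5, Itga7, Itga8, Itga9 and Itgav and the beta chains Itgb1, Itgb3 and Itgb5. Of these, 7 were measured among the 18166 named genes of the series, and Itgav and Itgb3 were not analysed here. Their values came from the epididymis, the coiled duct in which sperm mature, of Sprague-Dawley rats aged 48 days. Magnetic separation had parted basal from non-basal cells, and total RNA was measured on 3 Affymetrix RaGene 2.0 ST arrays per fraction. Neither fraction had a further treatment or genotype in the labels. The surface molecule used for the separation is not named in the labels, which also do not tie an array to a rat, so p-values reflect the spread among these 6 samples alone, and that spread may be technical.

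Integrins are receptors that join the matrix outside a cell to the actin cytoskeleton inside it, each made of 1 alpha and 1 beta chain. The beta chain Itgb1 pairs with many alpha chains, and the alpha chain largely decides which matrix protein is bound. Fibroblasts, smooth muscle and vessel walls are rich in integrins for fibronectin, collagens and muscle laminins, whereas basal cells of epithelia hold to their basement membrane mainly through laminin-binding integrins of hemidesmosomes. In these arrays the 5 measured alpha chains were lower in the basal fraction, by 1.73-fold to 3.57-fold, and neither of the 2 measured beta chains passed the test. The members had been grouped with results of these data known, so their common direction is a description of the group.

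The sequences that lie before the start sites are shown for the 3 members with the largest differences, all called lower. That of Itgb1, the partner chain of all 3, is set beside them, though Itgb1 did not pass. Each stretch holds the 250 bases before the annotated start in RefSeq's table for the GRCr8 build, in the direction of the gene, with GC boxes (GGGCGG on either strand) in capitals. The stretch of Itga1 is chr2:48545284-48545533 on the minus strand, that of Itga5 chr7:136381306-136381555 on the minus strand, that of Itga8 chr17:80410634-80410883 on the minus strand and that of Itgb1 chr19:73602027-73602276 on the plus strand.
Itga1: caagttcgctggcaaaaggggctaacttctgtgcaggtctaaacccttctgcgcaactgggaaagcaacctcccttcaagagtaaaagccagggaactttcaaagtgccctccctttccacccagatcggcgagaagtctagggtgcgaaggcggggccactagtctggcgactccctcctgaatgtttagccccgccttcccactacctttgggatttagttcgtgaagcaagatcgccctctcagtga
Itga5: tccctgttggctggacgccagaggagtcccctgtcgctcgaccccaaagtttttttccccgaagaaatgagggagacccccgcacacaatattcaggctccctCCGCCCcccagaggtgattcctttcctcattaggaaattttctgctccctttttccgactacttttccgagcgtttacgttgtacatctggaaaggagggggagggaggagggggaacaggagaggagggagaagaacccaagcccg
Itga8: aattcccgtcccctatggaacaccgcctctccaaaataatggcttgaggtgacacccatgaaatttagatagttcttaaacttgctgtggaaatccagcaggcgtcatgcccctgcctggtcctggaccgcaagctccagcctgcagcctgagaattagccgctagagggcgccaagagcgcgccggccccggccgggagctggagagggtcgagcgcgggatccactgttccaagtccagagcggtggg
Itgb1: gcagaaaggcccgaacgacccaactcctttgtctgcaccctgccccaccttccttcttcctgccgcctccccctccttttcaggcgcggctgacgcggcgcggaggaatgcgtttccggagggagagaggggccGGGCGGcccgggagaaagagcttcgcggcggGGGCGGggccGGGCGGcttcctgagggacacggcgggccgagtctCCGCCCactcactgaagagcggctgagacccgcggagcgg

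Of the 7 measured members 6 were found in that table, and Itga7 was not. The Itgb1 stretch held 4 GC boxes, that of Itga9 held 2 and that of Itga5 held 1, while those of Itga1, Itga8 and Itgb5 held 0. Among all 27457 stretches of the same length in the table, 32.4% held at least 1. GC content was 71.2% for Itgb1 and 74.4% for Itgb5, and between 54.4% and 65.2% for the 4 alpha chains, against a median of 52% over all stretches. No member held a TATA box (TATAAA, in 13.1% of all stretches), an AP-1 motif (TGANTCA, 6.36%), an E-box of the letters CACCTG (15.6%) or a CArG box (1.5%), and 1 member, Itgb1, held the TEAD motif GGAATG (11.8%). All searches covered both strands, and GC boxes may overlap one another. These matches describe letters in the window and are not sites of binding.

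The fractions were compared to learn which integrin genes basal cells carry at other levels than the rest of the epididymal cells. Values are log2 RMA values, an array scale on which 1 unit is a 2-fold difference, and a level of 1 probe set is not set against that of another. A difference is the basal minus the non-basal mean with its standard error from limma, fitted over all 18166 genes, and a gene was called at an adjusted p (Benjamini-Hochberg over all genes) under 0.05. By this rule 0 members were higher, 5 were lower and 2 did not pass, where 7.71% of all genes were higher, 7.14% were lower and 14.9% were called in all. At an unadjusted p under 0.05 there were 6 members, and 5443 of all genes, or 30%. The median difference was -0.89 for the 7 members and 0.0034 for all genes. For 6 members the values of the fractions did not overlap, a separation found in 32.9% of all genes, and for 5 of these the basal values were the lower ones, as in 15.3% of all genes. Since these are bulk fractions, fewer cells of a type and less RNA per cell cannot be told apart.

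**Figure D1:**
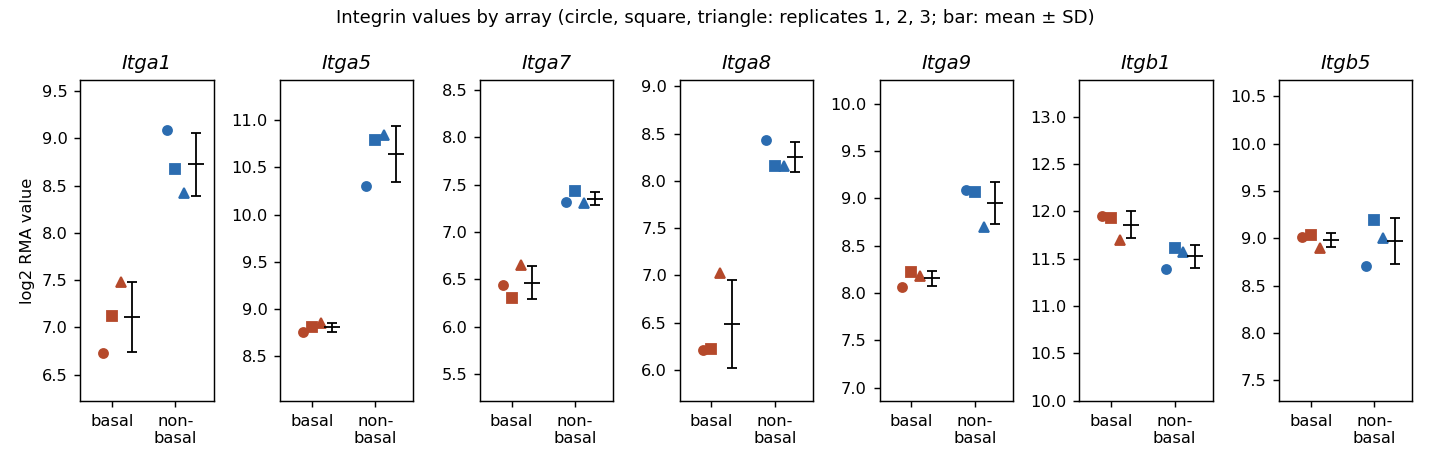
Log2 RMA value of each measured integrin gene in the 3 basal (red) and 3 non-basal (blue) arrays, with the mean ± SD beside the points. Panels have their own centre and the same span. The 5 alpha chains on the left are lower in every basal array than in any non-basal array, whereas the values of Itgb5 overlap.

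Itga5 is the alpha chain of the classical fibronectin receptor. In the order of the replicate numbers, used throughout, its values were 8.76, 8.81 and 8.85 in the basal and 10.30, 10.79 and 10.84 in the non-basal arrays. The basal arrays were close together, non-basal replicate 1 was the lowest of its fraction, and the fractions did not overlap. The means were 8.81 ± 0.0493 (SD, n = 3) and 10.64 ± 0.294 (n = 3), a 3.57-fold lower level in the basal fraction (log2 difference -1.83 ± 0.150, SE; limma adjusted p = 0.00233). The call held in all 6 fits with 1 array left out.

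Itga8 forms a receptor with Itgb1 for RGD-bearing matrix proteins, nephronectin among them, and is found on mesenchymal and smooth muscle cells. It measured 6.21, 6.22 and 7.03 in the basal and 8.43, 8.16 and 8.16 in the non-basal replicates. Basal replicate 3 stood above the other basal arrays but remained below every non-basal array. The means of 6.49 ± 0.469 and 8.25 ± 0.159 gave a 3.40-fold lower level (-1.76 ± 0.239, limma adjusted p = 0.00705). Without non-basal replicate 3 the adjusted p reached 0.0443, the highest of the 6 such fits.

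Itga1 is the collagen-binding chain that with Itgb1 takes up type IV and fibrillar collagens, and it is common on smooth muscle, fibroblasts and vessels. Its basal values were 6.73, 7.12 and 7.48 and its non-basal values 9.08, 8.67 and 8.42. Both fractions were spread, yet the highest basal array lay below the lowest non-basal one. The level was 3.06-fold lower in the basal fraction, with means of 7.11 ± 0.373 and 8.73 ± 0.333 (-1.62 ± 0.241, limma adjusted p = 0.00946). This call was lost without basal replicate 2, where the difference was the same -1.62 and the adjusted p 0.0554.

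Itga7 is the laminin receptor chain of muscle. It measured 6.44, 6.30 and 6.65 in the basal and 7.32, 7.44 and 7.30 in the non-basal replicates, with basal replicate 3 again the highest basal array and no overlap. From means of 6.47 ± 0.178 and 7.35 ± 0.0733, the level was 1.85-fold lower (-0.89 ± 0.106, limma adjusted p = 0.0049), and the call held in all 6 fits with 1 array left out.

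Itga9 forms with Itgb1 a receptor for tenascin-C and other matrix and vascular ligands. It measured 8.07, 8.22 and 8.18 in the basal and 9.09, 9.07 and 8.70 in the non-basal replicates, where non-basal replicate 3 came closest to the basal arrays without overlapping them. The means were 8.16 ± 0.079 and 8.95 ± 0.217, a 1.73-fold lower level (-0.79 ± 0.121, limma adjusted p = 0.0102). Without basal replicate 1 the call was lost at an adjusted p of 0.0538.

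Itgb1, the beta chain shared by all 5 of these alpha chains and by the laminin-binding chains of epithelia, did not pass. It measured 11.95, 11.93 and 11.69 in the basal and 11.39, 11.62 and 11.57 in the non-basal replicates. All basal arrays lay above all non-basal ones, by a narrow margin between basal replicate 3 and non-basal replicate 2. The difference was 0.33 ± 0.103 with a 95% interval of 0.081 to 0.586 (limma adjusted p = 0.0887, unadjusted p = 0.0177). Without basal replicate 3 it was 0.42 at an adjusted p of 0.0374, and without basal replicate 2 the adjusted p was 0.252.

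Itgb5 pairs with the alpha V chain in a vitronectin receptor present on many cell types. Its values of 9.01, 9.04 and 8.90 in the basal and 8.71, 9.20 and 9.005 in the non-basal replicates overlapped. The difference was 0.01 ± 0.132 (limma adjusted p = 0.969), with a 95% interval of -0.312 to 0.333. An equal level is not shown by this interval. Its sign changed when the first or second basal or the first non-basal array was left out, over a range of -0.119 to 0.123 in the 6 such fits.

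Among the members, the 95% interval of Itga5 (-2.20 to -1.47) did not reach those of Itga7 (-1.15 to -0.63) and Itga9 (-1.09 to -0.50), and those of Itga5, Itga8 and Itga1 overlapped. None of the 5 alpha intervals reached the Itgb1 interval. Differences between members were not tested as such, and the RMA summary compresses differences of dim probe sets, so the order of sizes between genes is only approximate. The basal means of Itga8 and Itga7, 6.49 and 6.47, lay below the array medians of 6.63 to 6.70, so this limit bears on their fold values.

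**Figure D2:**
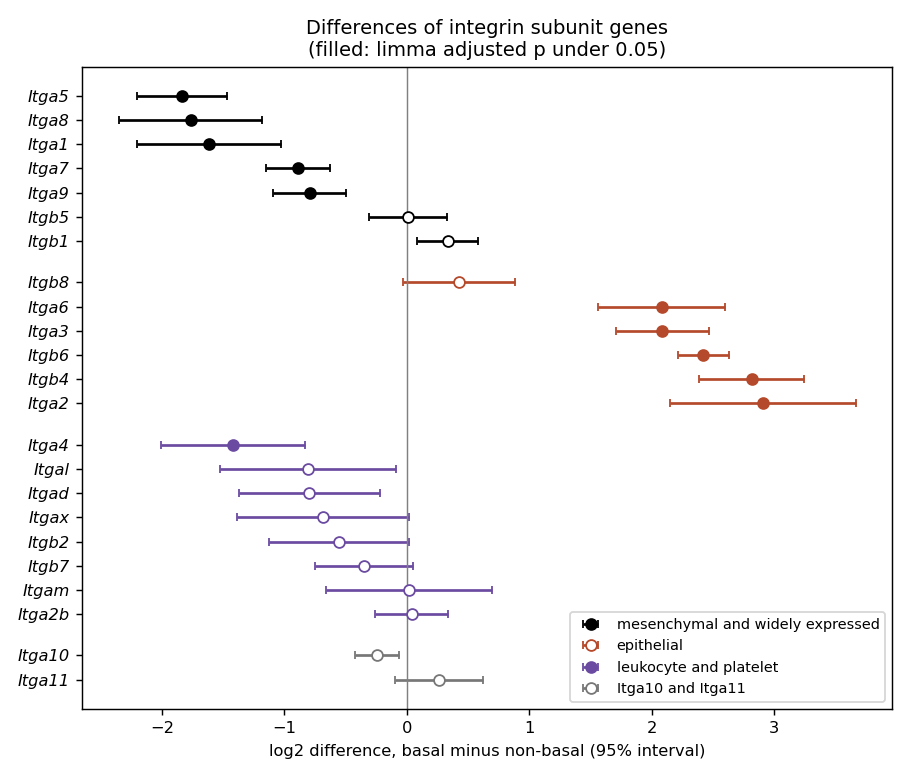
Log2 difference, basal minus non-basal, with its 95% interval for 23 integrin subunit genes in 4 sets, filled where the limma adjusted p was under 0.05. The 5 alpha chains of the top set lie between -1.83 and -0.79, and 5 of the 6 epithelial subunits lie above 2. Itgb5 lies at 0.01 and Itgb1 at 0.33, the latter with an interval above 0, and neither is filled.

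The other integrin subunits were set beside this group, in lists that were also chosen with results of these data known. Their counts describe those lists, where 7.71% of all genes were higher and 7.14% lower. Of 6 epithelial subunits 5 were higher in the basal fraction, with a median difference of 2.26. Itgb6, the epithelial partner of the alpha V chain, was higher by 2.42 ± 0.0861 (limma adjusted p = 0.000908), and Itgb4, the hemidesmosome chain, by 2.82 ± 0.176. Itga3 and Itga6, both laminin-binding, were higher by 2.09 and 2.08, and Itga2, a collagen-binding chain like Itga1, by 2.91. With 1 array left out 5 or 6 of these were higher. Of 8 leukocyte and platelet subunits 1 was lower, Itga4 at -1.42 ± 0.24 (limma adjusted p = 0.0142), and 7 did not pass. That count was 6 without non-basal replicate 1, 1 without basal replicate 3, and 0 when any of the other 4 arrays was left out (in limma, with 1 to 3 of these 8 genes at an unadjusted p under 0.05). The remaining collagen-binding chains of connective tissue, Itga10 and Itga11, did not pass (-0.24 and 0.27; limma adjusted p = 0.0856 and 0.282).

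The fractions also differed in markers of the cells in which these integrins are common. In each list the 2 genes with the smallest p are named, which need not have the largest differences. Of 14 fibroblast markers 13 were lower in the basal fraction, Lum and Mfap5 among them, and their mean deviation from the mean of all 6 arrays ran from -2.50 to -0.79 in the basal and from 1.12 to 2.17 in the non-basal arrays. The basal fraction was lower in 10 of 13 markers of smooth muscle and pericytes, among them Myocd (-1.21) and Abcc9 (-1.61), with ranges of -1.11 to -0.49 and 0.76 to 0.97. Of the 3 that did not pass, Cspg4 went the other way, at 0.39 (limma adjusted p = 0.0532), and passed as higher without basal replicate 3. Of 13 endothelial markers 12 were lower, Tie1 and Emcn among them, with ranges of -0.82 to -0.51 and 0.58 to 0.80. With 1 array left out, 9 to 11 were lower in this list and likewise in that of smooth muscle and pericytes. The fibroblast count was 5 when the second basal or the third non-basal array was omitted and 6 when the second non-basal array was. Of 13 lymphocyte markers 7 were lower, Prf1 and Nkg7 among them, and of 13 macrophage markers 2, Ptprc and Laptm5. Without non-basal replicate 1 there were 10 lower in each of these lists, and the macrophage count was 1 without basal replicate 3 and 0 without any of the other 4 arrays. The lymphocyte count was 6 without basal replicate 3 and 5 without any of the other 4 arrays. All 13 measured basal epithelial markers were higher, Jag2 and Pkp1 among them, and 10 to 13 were with 1 array omitted. Of 10 principal cell markers 1 was lower, Spag11a, and the count was 6 without basal replicate 3, 1 without non-basal replicate 1 and 0 without any of the other 4 arrays. In limma 0 of 6 clear cell, 0 of 4 platelet and 0 of 4 mesothelial markers passed, with 0, 1 and 1 at an unadjusted p under 0.05, and of 5 Schwann cell markers 1, Mbp, was higher, a call kept without basal replicate 3 and lost when any other array was omitted. Without non-basal replicate 1, 3 platelet markers, 1 mesothelial marker and 2 Schwann cell markers were lower. Without basal replicate 3, 1 clear cell marker was lower and 1 platelet marker was higher. The part of any cell type in the integrin differences was not tested.

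Basal replicate 3 and non-basal replicate 1 stood apart from the other arrays of their fractions, and the members did not follow them alike. In basal replicate 3 the fibroblast markers lay 1.45 above the mean of the other basal arrays, the smooth muscle markers 0.585 and the endothelial markers 0.258. The mesothelial, principal cell, clear cell and lymphocyte markers also lay above it, by 1.24, 0.722, 0.433 and 0.321. Basal epithelial, Schwann cell, macrophage and platelet markers lay below it, at -0.291, -0.209, -0.182 and -0.0755. Itga8 lay 0.813 above that mean, Itga1 0.554 and Itga7 0.283, whereas Itga5 and Itga9 lay within 0.0691 and 0.0384 of it. Itgb1 and Itgb5 lay below it, at -0.247 and -0.130. In non-basal replicate 1 the macrophage, fibroblast, lymphocyte, basal epithelial and smooth muscle markers lay below the mean of the other non-basal arrays, at -1.19, -0.964, -0.735, -0.71 and -0.181. The mesothelial, Schwann cell and platelet markers lay below it too, at -0.971, -0.366 and -0.225. The clear cell, principal cell and endothelial markers lay above it, at 0.594, 0.232 and 0.186. In this array Itga5 was lower, at -0.51, while Itga1, Itga8 and Itga9 were higher by 0.536, 0.275 and 0.201. Itga7 was at -0.0474, Itgb1 at -0.202 and Itgb5 at -0.388. Without both arrays 5 members were lower and 1, Itgb1, was higher (0.35, limma adjusted p = 0.0227).

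**Figure D3:**
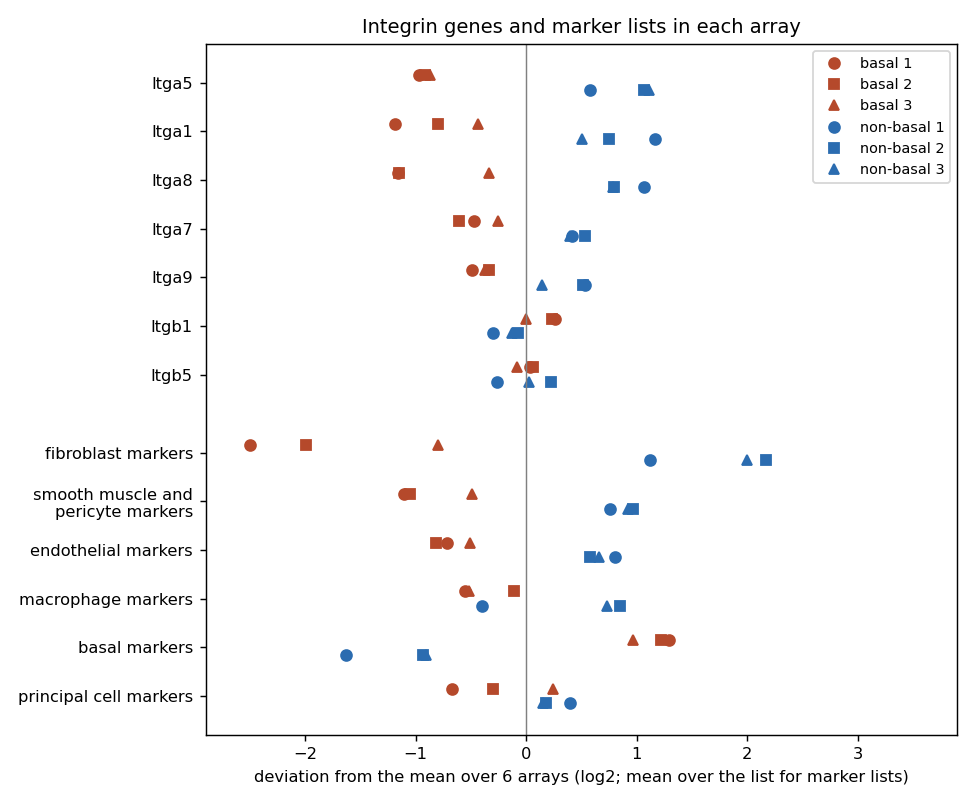
Deviation of each integrin gene, and the mean deviation of each marker list, from its mean over the 6 arrays (log2), with red for basal and blue for non-basal arrays and a marker shape for each replicate. The basal replicate 3 triangles of Itga8, Itga1 and the fibroblast markers stand to the right of the other basal points, whereas the basal points of Itga5 and Itga9 are close together.

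The genes with the most similar profiles were taken as those with the smallest Euclidean distance between 6-array profiles, each centred on its mean, with members left out. Small differences give small distances, so distances of different members are not comparable. Nearest to Itga8 were Adgrl4 (distance 0.246), Myct1 (0.297) and Selp (0.312), of which Selp encodes P-selectin of endothelium and platelets. Nearest to Itga1 were Rbfox3 (0.389), Sod3 (0.396), the extracellular superoxide dismutase, and again Myct1 (0.423). Itga5 was nearest to Ndn (0.179), Slit2 (0.225), an axon guidance ligand, and Pknox2 (0.251). Itga7 was nearest to Cd274 (0.113), Csrp2 (0.128), a LIM protein of smooth muscle, and Klf12 (0.138), and Itga9 to Hacd1 (0.203), Ttyh3 (0.227) and Wnt5a (0.231), a Wnt ligand. For Itgb1 they were Wdtc1, Ncoa4 and Tmem131, at 0.0450 to 0.0611, and for Itgb5 Plod1, Rnf13 and Tshz1, at 0.0727 to 0.0801. Among the members themselves Itga7 and Itga9 were 0.405 apart, Itgb1 and Itgb5 0.447 and Itga1 and Itga8 0.473.

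Matrix ligands of these integrins were mostly lower in the basal fraction. Of 9 measured collagen genes 8 were lower, with a median difference of -2.59. Col4a1 and Col4a2, the main chains of basement membrane collagen, differed by -1.80 ± 0.151 and -1.39 ± 0.121 (limma adjusted p = 0.00237 and 0.00258), and the microfibrillar chains Col6a3 and Col6a2 by -2.59 and -2.98. Without basal replicate 2, non-basal replicate 2 or non-basal replicate 3 the count was 4. Of this list, Col1a1, Col1a2 and Col3a1 are also among the fibroblast markers above. Of 6 laminin chains 3 were lower and 2 were higher. Lama2, a muscle and mesenchymal laminin chain, was lower at -3.80 ± 0.403 and Lama4, of vessel walls, at -2.55 ± 0.317. Lama1 and Lama5 were higher by 0.61 and 0.92 (limma adjusted p = 0.00556 and 0.0127). Leaving out non-basal replicate 1 changed neither count, leaving out basal replicate 3 gave 2 lower and 2 higher, and leaving out any of the other 4 arrays gave 2 lower and 1 higher.

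Of 16 measured genes for fibronectin, other RGD-bearing proteins and related ligands, 10 were lower and 2 were higher, with a median of -1.60. Fn1, the fibronectin gene and ligand of the Itga5 receptor, was lower at -2.36 ± 0.139 (limma adjusted p = 0.00176), next to -1.83 for Itga5 itself. Vtn, which encodes vitronectin, a ligand of the receptor with Itgb5, was lower at -2.33 ± 0.218, where Itgb5 was at 0.01. Among the 4 genes of this list that did not pass was Mfge8, at -0.023 (limma adjusted p = 0.935). Emilin1, an elastic fibre glycoprotein bound through Itga9, was lower at -1.22 ± 0.087. The matricellular gene Ccn2 was higher, by 2.11 ± 0.15 (limma adjusted p = 0.00206), and Ccn1, the second gene that was higher, by 1.47 ± 0.247. The Ccn1 call was lost at an adjusted p of 0.0733 without basal replicate 2, and 1 ligand was higher when the first or second basal or the third non-basal array was left out. Npnt and Tnc, which encode nephronectin and tenascin-C, were not analysed here.

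**Figure D4:**
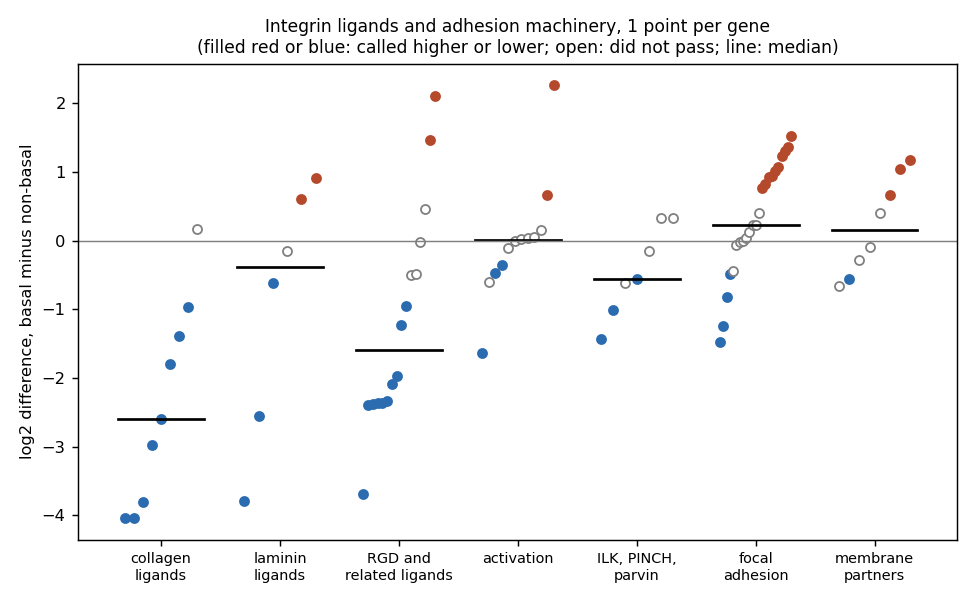
Log2 difference, basal minus non-basal, of every measured gene in 3 lists of integrin ligands and 4 lists of adhesion machinery, with red and blue for genes called higher and lower, open circles for genes that did not pass and a line at the median. Collagen ligands have a median of -2.59 and focal adhesion genes one of 0.23.

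Genes of the machinery inside the cell that integrins use, forms of epithelia, mesenchymal cells and blood cells among them, went both ways. Of 12 genes that switch integrins on or off, 2 rose and 3 fell in the basal fraction, and 7 did not pass. Fermt1, the kindlin of epithelia, was higher by 2.26 ± 0.0956 (limma adjusted p = 0.000908) and Tln1, the talin that binds beta chain tails, by 0.66 ± 0.125. Fermt2, the kindlin of mesenchymal cells, was lower at -0.35 ± 0.0775 and Apbb1ip, a talin recruiter of blood cells, at -1.63 ± 0.358 (limma adjusted p = 0.0337 and 0.0325), besides Rap1a. Except for 4 lower genes without non-basal replicate 1, 0 were lower in the fits with 1 array left out, and 1 was higher, save for the fits without basal replicate 3 or non-basal replicate 1, where 2 were. In the complex of integrin-linked kinase, PINCH and parvin 3 of 7 genes were lower, namely Parvb (-1.44 ± 0.127), Lims2 (-1.005 ± 0.11) and Parva (-0.56 ± 0.0997), and 0 were higher in limma. The kinase gene Ilk had a difference of 0.33 (limma adjusted p = 0.0962) and passed as higher without basal replicate 3, and Parvg had one of -0.61 (adjusted p = 0.0949).

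Of 23 focal adhesion genes 10 rose in the basal fraction, 4 fell and 9 did not pass, and the median difference was 0.23. Src, a tyrosine kinase, was higher by 1.23 ± 0.088 (limma adjusted p = 0.00206), Vcl, which encodes vinculin, by 1.36 ± 0.101, Actn1, an actin crosslinker, by 1.02 ± 0.0922 and Pdlim5, a scaffold of actin fibres, by 1.52 ± 0.141. With 1 array left out 9 or 10 were higher, and lower genes numbered 2 when the first basal or the second non-basal array was omitted and 1 when the second basal or the third non-basal array was. Of 8 membrane partners 3 were higher and 1 was lower. These were the proteoglycan gene Sdc4 (0.66 ± 0.0828), the tetraspanin gene Cd9 (1.18 ± 0.19), the urokinase receptor gene Plaur (1.04 ± 0.171) and the tetraspanin gene Cd81 (-0.56 ± 0.126). When the first or second basal or the third non-basal array was omitted, 1 was higher and 0 were lower; with the second non-basal array omitted the numbers were 2 and 0, and with the first 4 and 0.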

How the data were processed

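Total RNA of 3 basal and 3 non-basal fractions was measured on 6 arrays. Per the submitters' processing notes the authors ran RMA in Affymetrix Expression Console, and the deposited table holds log2 values; version, probe set library and build are not given in the sources used here. RMA matches the distributions of arrays, so a shift of most genes one way would not be seen. Values ran from 1.46 to 14.33 and array medians from 6.63 to 6.70. Of 36685 probe sets 18511 carried 1 symbol in the platform annotation, 575 several and 17599 none. A gene with several (291 genes) was read from its brightest probe set on average over the 6 arrays; each of the 7 members had 1, so this choice decided nothing for them. The table gave 18166 genes, with no filter.

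The fit used limma 3.58.1 (lmFit, eBayes) under R 4.3.3 with fraction as the sole term, two-sided, adjusted by the Benjamini-Hochberg method over all genes. The procedure was tested on simulated data. Correlations over probe sets were 0.982 to 0.991 within a fraction and 0.956 to 0.974 between fractions, and no 2 arrays held the same data. The number of arrays limits the precision.

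The members and gene lists were chosen with earlier results of these data known. Named were all members, up to 4 genes of each list and 2 of each marker list with the smallest p, members of small counts, and the 3 genes nearest to each member. The marker lists covered fibroblast, smooth muscle and pericyte, endothelial, macrophage, lymphocyte, platelet, Schwann, mesothelial, basal, principal and clear cells. Genes named outside this rule, to fill a count or a ligand pair or as going the other way, were picked with their values in view. The alternatives tried were a replicate block, quantile normalization, centring, a minimum group mean of 5 or 7, a robust fit with an intensity trend, array weights, the mean of a gene's probe sets, every probe set, and each array left out. Added after the data were seen were basal replicate 3 and non-basal replicate 1 left out together and centring on named genes only. No coordinates are given for probe sets, whose build is not named; those of promoter stretches and the order of neighbouring genes are from RefSeq's GRCr8 tables.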

Additional observations from a re-analysis of the deposited data

How the results depend on the processing

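The count of 5 lower members was the same with the replicate block, quantile normalization, both centrings, both filters, the intensity trend, array weights, the mean of probe sets, every probe set and both doubted arrays left out. With 1 array left out it was 4 to 5, and members called higher numbered 0 to 1. The count of higher members was 1 (Itgb1) with array weights, with basal replicate 3 and non-basal replicate 1 left out together and with centring on named genes. Over all genes, 2868 were higher and 2323 lower with array weights, 2499 and 2124 without both arrays, and 2166 and 1177 with centring on named genes, which moved the share of higher among called genes from 51.9% to 64.8% and the median of all genes from 0.0034 to 0.10. With 1 array left out, 509 to 2068 genes were higher and 542 to 1607 lower. The Itgb5 difference, called in no setting, changed sign with array centring (-0.0044), array weights (-0.040), without both arrays (-0.075), and when single arrays were omitted, at -0.0054 without the first basal array, -0.017 without the second and -0.119 without the first non-basal array (range -0.119 to 0.123). The causes were not tested.

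Replicate numbers were not shown to pair the arrays: deviations of same-numbered arrays correlated at 0.0278 to 0.0383. Every array correlated best with its own number, but by little in places. Basal replicate 1 and non-basal replicate 3 reached 0.0270, so no pairing is read from these values. With the replicate block 982 genes were higher and 1027 lower, and the calls of the 7 members did not change.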

Other observations

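Genes that lie next to the members on the chromosome were set beside them. Of the 11 measured protein-coding neighbours, by start position in RefSeq's GRCr8 table, 0 were lower in the basal fraction in limma, 2 were higher and 9 did not pass, where 7.14% of all genes were lower and 7.71% higher, and nothing is read from counts this small. Among the 11 were Ccdc7a beside Itgb1 and Umps beside Itgb5, members that did not pass either. Golga4, beside Itga9, had a difference of -0.17 (limma adjusted p = 0.323), which fell to 0.0440 in 1 of the fits that omit an array. Itga1, lower at -1.62, has as its neighbour Itga2, another collagen-binding chain, which was higher by 2.91 ± 0.311 (limma adjusted p = 0.00374, and 0.0031 to 0.0307 with 1 array left out). Itga9, lower at -0.79, lies next to Ctdspl, a phosphatase gene, which was higher by 1.08 ± 0.0785 (limma adjusted p = 0.00206, and 0.00298 to 0.0211 with 1 array left out). The neighbours of Itga5, Zfp385a and Gtsf1, had differences of -0.056 and -0.0038, and Mindy3, beside Itga8, had one of -0.0029. These neighbours were looked up after the values of the members were seen.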
